A study of Mus musculus with 8 samples.

Results

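The 7 genes described here encode the opioid and nociceptin precursors (Pdyn, Penk and Pnoc) and their receptors (Oprk1, Oprl1, Oprm1 and Oprd1). They were taken by name, with the probe set that the platform annotation maps to that one symbol, out of 19938 genes with such a probe set. Each had 1 probe set, and all 7 passed the filter on low signal. RNA came from tissue labelled cervical spinal cord of male C57BL/6 mice that were 6 weeks old when treatment began, on 8 whole-transcript arrays. Control mice were injected with saline for 4 weeks. All other mice received MPTP, a toxin of dopaminergic neurons used to model parkinsonism, at 20 mg/kg of free base every 24 h for the same time. One MPTP group was not needled. Another received manual acupuncture at GB34 (leg) and LR3 (foot), 14 sessions in all, and the last was needled at the hips, away from these points (the non-acupoint group). Each of the 4 groups had 2 arrays. The titles name 1 mouse for each array, and the protocol states 9 mice each for the saline and the MPTP group. P-values cover no more than the variation among these 8 samples, part of which may be technical.

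Opioid peptides are cut from large precursors by proprotein convertases and carboxypeptidase E inside dense-core vesicles. Prodynorphin (Pdyn) yields dynorphins, which act mainly at the kappa receptor (Oprk1). Proenkephalin (Penk) yields enkephalins, which act at the delta (Oprd1) and mu (Oprm1) receptors. Pronociceptin (Pnoc) yields nociceptin, the ligand of the related receptor Oprl1, which binds classical opioids poorly. The receptors couple to inhibitory G proteins, which open inwardly rectifying potassium channels, close calcium channels and inhibit adenylyl cyclase. In the spinal cord, dorsal horn interneurons make these peptides, and the receptors dampen transmission of pain signals.

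The arrays differed in more than their groups. Muscle markers (15 of 15 measured) had a mean of 7.21 and 8.72 on control replicates 1 and 2, 6.70 on acupoint replicate 1 and 5.18 to 5.59 on the other 5 arrays. Meningeal and fibroblast markers (8 of 8 measured) read 7.90 and 8.02 on the first replicates of the control and acupoint groups and 6.13 to 7.31 elsewhere. Schwann cell markers (5 of 7 measured) were at 8.31 and 8.17 on the same pair of arrays, against 6.46 to 7.51.  Of the position genes, the Hox group of cervical and thoracic cord (7 of 8 measured) was at 7.19 to 7.51 on all arrays. The Hox group of lumbosacral cord, which goes against the cervical label where it is high, was at 6.08 to 6.94 on 7 arrays and at 4.83 on non-acupoint replicate 1. Its member Hoxd10 was at 4.58 on that array and at 7.64 to 9.07 on the others. Differences of the non-acupoint group from control and from MPTP alone are therefore also given without that array. The comparison of the needling sites is given with all arrays only. All values are log2 signals as the authors deposited them, and levels are not compared between genes.

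**Figure D1:**
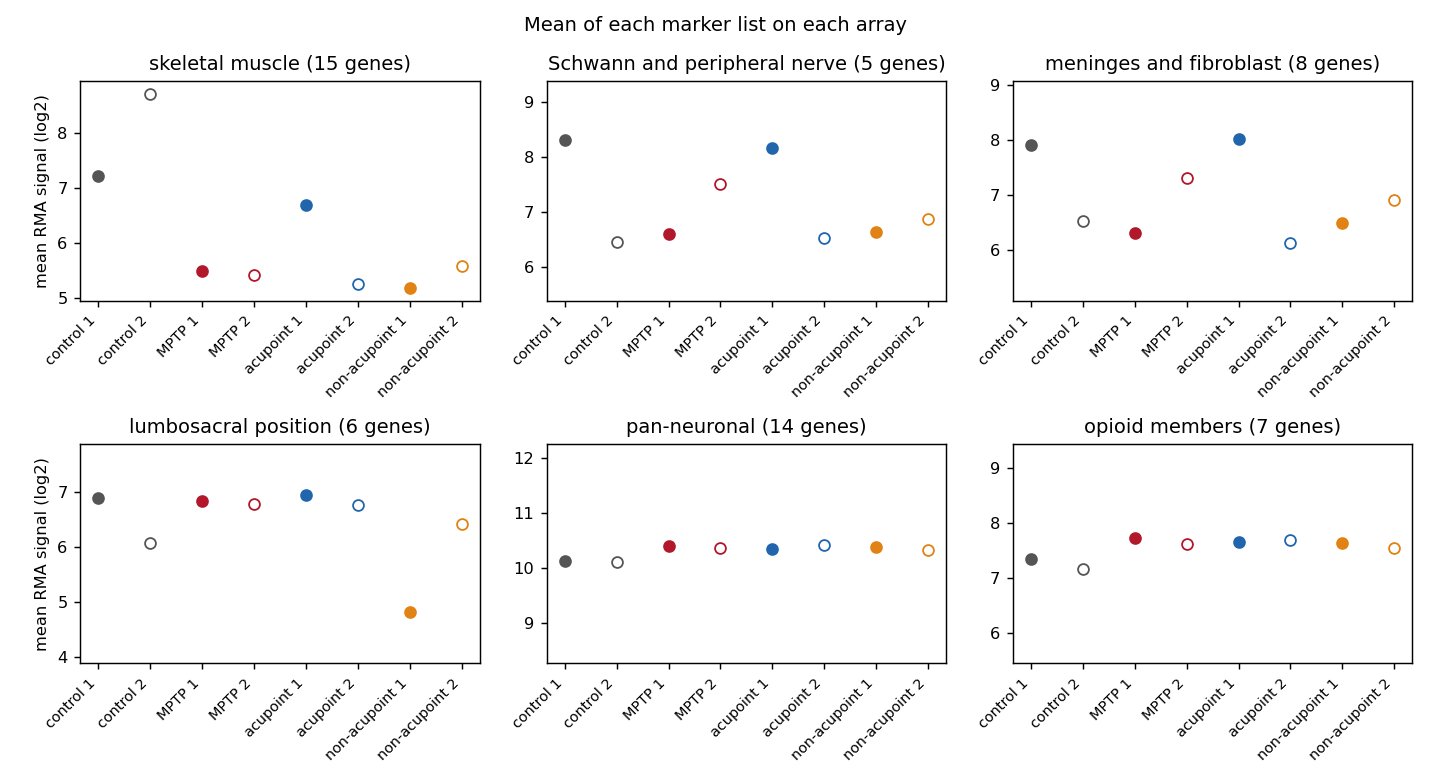
Mean log2 signal (vertical axis, 4 log2 units in every panel) of 6 gene lists on each of the 8 arrays (horizontal axis), coloured by group, with replicate 1 filled and replicate 2 open. Muscle markers were highest on control replicate 2 (8.72), nerve and meningeal markers on control replicate 1 and acupoint replicate 1, and the lumbosacral list was lowest on non-acupoint replicate 1 (4.83).

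Prodynorphin was the member with the largest difference between saline and MPTP. Pdyn signal was 6.20 and 5.93 after saline, 6.93 and 6.85 after MPTP alone, 6.88 and 6.78 with acupoint needling, and 6.81 and 6.84 with hip needling. All 6 MPTP-treated arrays lay within 0.15 of one another, and the lowest of them was 0.58 above the higher control array. Pdyn rose 1.77-fold after MPTP (log2 difference 0.82, SE 0.12, 95% interval 0.55 to 1.10, limma adjusted p = 0.00451). This difference was larger than those of 99.4% of the genes tested. It was 0.96 without control replicate 1 and 0.69 without control replicate 2, both past the threshold. With 1 MPTP array left out it was 0.79 or 0.86, at limma adjusted p = 0.0679 and 0.0512.

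The sequence before the most upstream Pdyn start is shown because Pdyn had the largest difference of the 7 genes. Kcnip3 encodes the calcium sensor DREAM, which represses Pdyn from a downstream regulatory element. It also rose after MPTP (values below), so the repressor gene and Pdyn went in the same direction. A link between them was not tested. RefSeq windows in GRCm38.p6 were matched for 4 of the 7 genes. The window of 250 bases lies at chr2:129699939-129700188, minus strand. Capitals mark each match to GTCA, the core of that element, on either strand (TGAC on the printed one). The window ends at the start, so it cannot show an element that lies downstream of the start. Binding to these matches was not tested.

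Pdyn upstream: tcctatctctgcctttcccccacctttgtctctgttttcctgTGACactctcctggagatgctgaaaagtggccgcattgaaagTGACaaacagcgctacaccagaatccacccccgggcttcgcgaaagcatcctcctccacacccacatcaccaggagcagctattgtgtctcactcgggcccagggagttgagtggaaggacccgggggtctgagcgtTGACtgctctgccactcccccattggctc

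The core occurred 3 times in this window. The mean over all 32851 RefSeq windows of the same length was 1.74, and 80.2% of them hold it at least 1 time. The cAMP response element TGACGTCA (1.55% of windows) and the AP-1 element TGANTCA (6.75%) were not in the printed 250 bases. Nor was TGACG (17.8%), the shorter form of the cAMP response element, which contains the GTCA core on the other strand. The core also occurred 3 times before the other Pdyn start. Before the starts of genes not called it occurred 2, 1 and 1 times for Oprm1 and 1 time for Oprd1.

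Penk did not differ between saline and MPTP beyond the spread of the arrays. Its signal was 11.35 and 11.09 after saline, which enclosed 11.28 and 11.24 after MPTP alone, 11.32 and 11.34 with acupoint needling, and 11.18 and 11.16 with hip needling. The MPTP minus control difference was 0.039 (SE 0.085, 95% interval -0.15 to 0.23, limma adjusted p = 0.805), so a rise of the size seen for Pdyn lies outside the interval. The sign of the Penk difference depended on the scaling, at -0.12 after cyclic loess and 0.20 with arrays centred on their medians. Without control replicate 1 and acupoint replicate 1, the pair with high nerve and meningeal markers, it was 0.17 (limma adjusted p = 0.0305).

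Pnoc was higher on every MPTP-treated array than on either control array. Its signal was 7.13 and 7.01 after saline, 7.55 and 7.36 after MPTP alone, 7.47 and 7.60 with acupoint needling, and 7.60 and 7.29 with hip needling. The MPTP minus control difference was 0.39 (SE 0.13, 95% interval 0.10 to 0.68) and missed the threshold over all genes (limma adjusted p = 0.0688). Under 5 of 21 alternatives it passed, among them arrays centred on their medians (0.55, limma adjusted p = 0.0259). Over the 6 MPTP-treated arrays together Pnoc rose by 0.41 (SE 0.11, limma adjusted p = 0.02). That call was lost without control replicate 1 (limma adjusted p = 0.0574), without control replicate 2 (0.162) and without MPTP replicate 1 (0.0579).

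**Figure D2:**
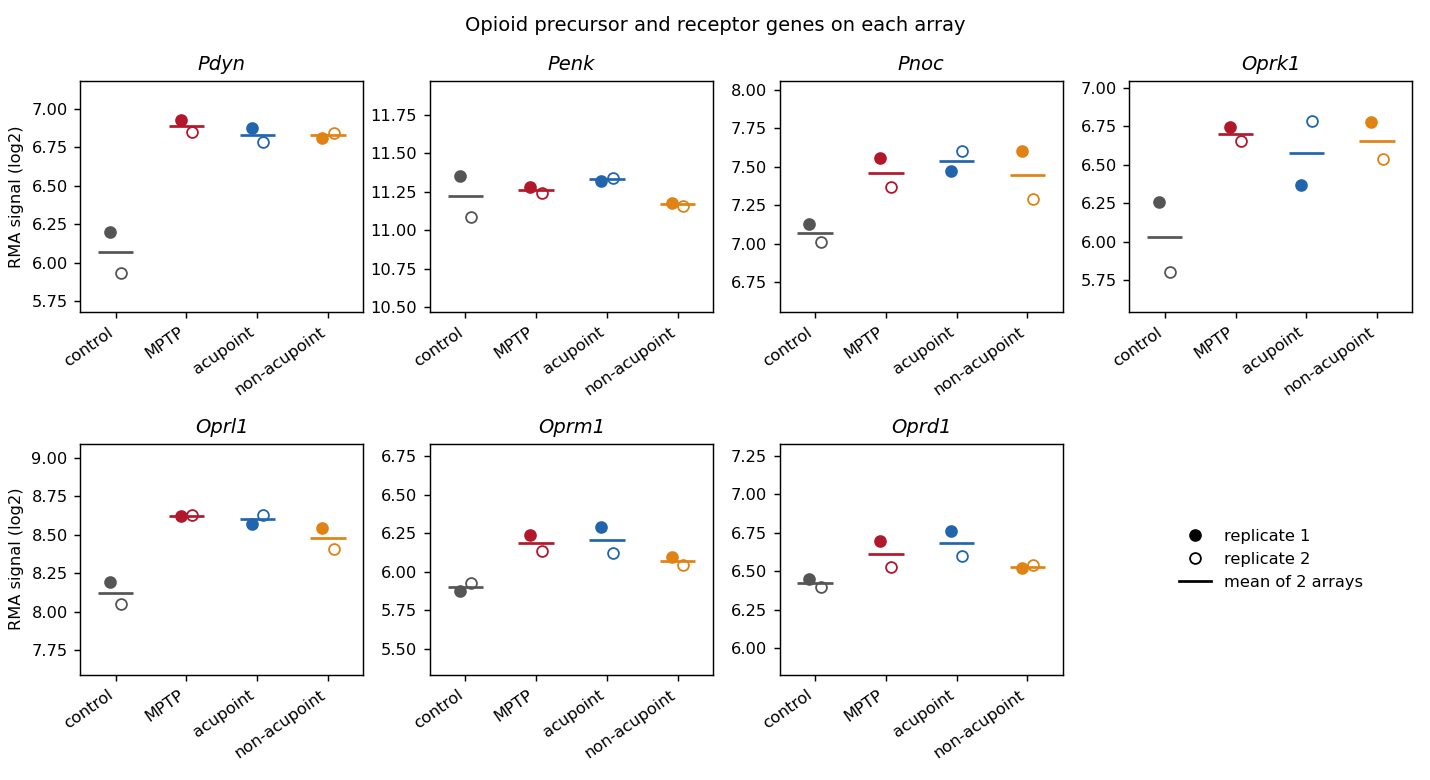
Log2 RMA signal (vertical axis, 1.5 log2 units in every panel) of each of the 7 genes by group (horizontal axis), with replicate 1 filled, replicate 2 open and a bar for the mean of the 2 arrays. In 6 panels both control arrays lie below all 6 MPTP-treated arrays, and in the Penk panel the control arrays (11.35 and 11.09) overlap them.

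Among the receptors, the kappa and nociceptin receptor genes rose after MPTP, while the mu and delta receptor genes did not pass. Oprk1 was at 6.26 and 5.80 after saline, 6.75 and 6.65 after MPTP alone, 6.37 and 6.79 with acupoint needling, and 6.78 and 6.54 with hip needling. It varied most within groups, with a standard deviation of 0.24 pooled over the 4 groups. Acupoint replicate 1 was only 0.11 above control replicate 1, and that array also shared with control replicate 1 the high meningeal and nerve markers. Oprk1 rose 1.59-fold after MPTP (log2 difference 0.67, SE 0.19, 95% interval 0.25 to 1.09, limma adjusted p = 0.0381). This call was lost under 9 of 21 alternatives. Leaving out 1 array ended it for control replicate 2 (0.44, limma adjusted p = 0.22), MPTP replicate 1 (0.62, limma adjusted p = 0.213) and MPTP replicate 2 (0.71, limma adjusted p = 0.144). It was also lost without non-acupoint replicate 1 or 2 (limma adjusted p = 0.0588 and 0.0582), which leave the difference as it was.

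Oprl1 had the narrowest spread of the 7 genes, with a pooled standard deviation of 0.073. Its signal was 8.20 and 8.05 after saline, 8.62 and 8.63 after MPTP alone, 8.57 and 8.63 with acupoint needling, and 8.55 and 8.41 with hip needling. No MPTP-treated array overlapped a control array. Oprl1 rose 1.41-fold after MPTP (log2 difference 0.50, SE 0.089, 95% interval 0.30 to 0.70, limma adjusted p = 0.00781). The call was lost without control replicate 2 (0.43, limma adjusted p = 0.056), without MPTP replicate 1 (0.50, limma adjusted p = 0.0888) and without MPTP replicate 2 (0.49, limma adjusted p = 0.0791).

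Oprl1 is the other called member with a RefSeq window, and the bases before its most upstream start are printed for comparison with Pdyn. They lie at chr2:181714766-181715015, plus strand, in GRCm38.p6.

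Oprl1 upstream: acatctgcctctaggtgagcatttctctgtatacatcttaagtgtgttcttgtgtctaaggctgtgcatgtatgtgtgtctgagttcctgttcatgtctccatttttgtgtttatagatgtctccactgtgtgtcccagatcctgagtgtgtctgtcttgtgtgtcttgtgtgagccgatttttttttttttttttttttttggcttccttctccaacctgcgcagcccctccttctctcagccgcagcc

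No GTCA core, cAMP response element or AP-1 element was in this window, so no base is in capitals. The windows of the other 2 Oprl1 starts held 1 and 2 GTCA cores. Its GC content was 44.4%, against 57.2% for the Pdyn window.

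Oprm1, the receptor for morphine, was at 5.87 and 5.93 after saline, 6.24 and 6.14 after MPTP alone, 6.29 and 6.12 with acupoint needling, and 6.10 and 6.04 with hip needling. The MPTP minus control difference was 0.29 (SE 0.12, 95% interval 0.017 to 0.55, limma adjusted p = 0.135). Under 2 of 21 alternatives Oprm1 passed. These were a repeated quantile normalization (0.42, limma adjusted p = 0.0399) and arrays centred on their medians (0.44, limma adjusted p = 0.0281). Oprd1, the delta receptor gene, was at 6.45 and 6.39 after saline, 6.69 and 6.52 after MPTP alone, 6.76 and 6.60 with acupoint needling, and 6.52 and 6.54 with hip needling. Its difference was 0.19 (SE 0.12, 95% interval -0.071 to 0.45, limma adjusted p = 0.306). Both genes were lower on the control arrays than on every other array, by margins of 0.11 for Oprm1 and 0.071 for Oprd1 between the nearest arrays.

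Counted together, 3 of the 7 genes rose in MPTP minus control and 0 fell, where 13.7% of the 16026 genes tested rose and 3.1% fell. The arrays of the 2 groups did not overlap, with MPTP higher, for 6 of the 7 genes, against 41.9% of all genes, and the same 6 genes did not overlap in the other comparisons with control (33.2% of genes for acupoint, 40.2% for non-acupoint, 26.1% over all MPTP-treated arrays). The median difference of the 7 genes was 0.39, against 0.061 over all genes. Against the same control arrays, Pdyn (0.76), Pnoc (0.47) and Oprl1 (0.48) rose in the acupoint group, where 9.55% of genes did. In the non-acupoint group Pdyn (0.76), Oprk1 (0.62) and Oprl1 (0.35) rose, where 15.4% of genes did. These comparisons share the control arrays and are not independent of each other. The Pnoc call in the acupoint group (limma adjusted p = 0.0472) was lost without any 1 of the 8 arrays except acupoint replicate 1. Without non-acupoint replicate 1, the array with the low lumbosacral Hox signal, Pdyn was at 0.78, Oprk1 at 0.50 and Oprl1 at 0.28. Without the other non-acupoint array Pdyn was at 0.75. Each of these fits leaves 1 array in the group, and fewer of the 7 genes and of all genes were called in both. Over all 6 MPTP-treated arrays 4 genes rose, namely Pdyn (0.78), Oprk1 (0.61), Oprl1 (0.44) and Pnoc (0.41), where 19.9% of genes did. That count fell without control replicate 2, as did the share of all genes called.

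**Figure D3:**
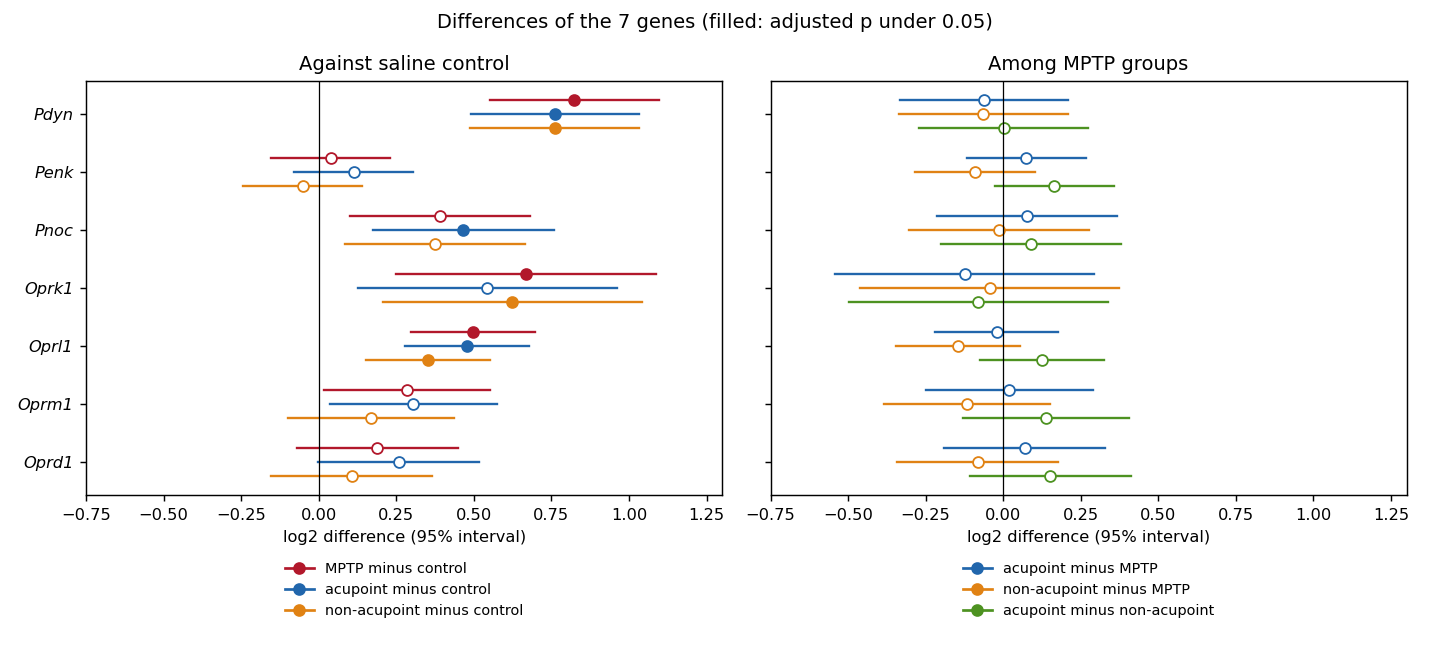
Log2 differences (horizontal axis) of the 7 genes (vertical axis) with 95% intervals from limma, filled where the adjusted p over all genes was under 0.05. The left panel sets the 3 MPTP groups against the same control arrays, and the right panel compares the MPTP groups with one another, where no point is filled and all intervals include 0.

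Needling at either site left no called difference in any of the 7 genes among the MPTP-treated groups. Acupoint minus MPTP differences ran from -0.12 for Oprk1 to 0.076 for Pnoc, with 0 of 16026 genes called (0%) and 201 genes (1.25%) at an unadjusted p under 0.05 in limma, none of them one of the 7. Only Penk had no overlap with the acupoint group higher, against 12.3% of all genes. For Pdyn the difference was -0.062 with a 95% interval of -0.33 to 0.21, so a return to the control level, which would be a fall of 0.82, lies outside it. For Oprl1 it was -0.021 (95% interval -0.22 to 0.18). Oprk1 was less precisely measured, at -0.12 (95% interval -0.54 to 0.29).

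Non-acupoint minus MPTP differences were negative for all 7 genes, from -0.15 for Oprl1 to -0.014 for Pnoc, with 0 of 16026 genes called (0%) and 273 (1.7%) at an unadjusted p under 0.05 in limma, again none of the 7. Without non-acupoint replicate 1 they ran from -0.21 for Oprl1 to -0.049 for Pdyn. The arrays did not overlap, with the non-acupoint group lower, for Pdyn, Penk, Oprl1 and Oprm1, against 19.2% of all genes. Acupoint minus non-acupoint differences ran from -0.080 for Oprk1 to 0.17 for Penk. The arrays did not overlap, with the acupoint group higher, for Penk, Oprl1, Oprm1 and Oprd1, against 15.2% of all genes. In that comparison 0 of 16026 genes were called (0%) and 604 (3.77%) had an unadjusted p under 0.05 in limma, with none of the 7 among them. The smallest p of the 7 genes was that of Penk (0.0838 before adjustment, limma adjusted p = 0.936).

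Among genes that process the precursors, the convertase Pcsk1 had a difference as large as that of Pdyn. Of 13 listed, 12 were measured, 6 rose and 0 fell after MPTP, with a median of 0.34. Pcsk1, the prohormone convertase that makes the first cuts, rose 1.90-fold (log2 difference 0.92, SE 0.14, limma adjusted p = 0.00476). It was at 0.95 in the acupoint group and 0.85 in the non-acupoint group against the same controls. The dense-core vesicle proteins Chga, Chgb and Scg2 rose by 0.65, 0.62 and 0.39, cathepsin L (Ctsl), which also cuts these precursors, by 0.61, and carboxypeptidase E (Cpe), which trims the basic residues left by the cut, by 0.44. Scg5, the chaperone of the convertase PC2, was at 0.29 and Pam, the amidating enzyme, at 0.30, and neither passed. The convertase inhibitor Pcsk1n was at -0.031. Among enzymes that degrade opioid peptides, 2 of 7 measured rose, Dpp3 (0.47), which cuts enkephalins, and Ece1 (0.34). Neprilysin (Mme) was at -0.039, and the list median was 0.065, close to that of all genes.

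Some signalling partners of the receptors rose too. Of 10 G protein genes 3 rose, namely Gnaz (0.47), Gnai1 (0.37) and Gnb1 (0.25). Of 11 effector genes 3 rose, namely the potassium channel subunits Kcnj3 (0.54) and Kcnj9 (0.46) and the adenylyl cyclase Adcy5 (0.31). The calcium channel subunits Cacna1a and Cacna1b were at -0.33 and -0.18 and did not pass. Of 11 regulators measured of 14 listed, the receptor kinases Grk5 (0.57) and Grk3 (0.40) rose, and the arrestin gene Arrb2 was at -0.27 without passing. Among 8 transcription regulators tied to the precursor genes, Kcnip3, the DREAM gene named above, rose by 0.65 (SE 0.088, limma adjusted p = 0.00362) and the AP-1 subunit Jund fell by 0.32 (limma adjusted p = 0.0236). Creb1 was at 0.17 and Fos at 0.36, and neither passed. Of the related genes Pomc, Ogfr and Ogfrl1 none passed, and Ogfr had the smallest p (0.38, limma adjusted p = 0.0655). In all, 17 of 62 measured genes of these 7 lists rose and 1 fell (29.0% called, against 16.8% of all genes), and their median was 0.16. In the comparisons among MPTP groups none of the 62 was called, and acupoint minus MPTP ran from -0.24 for Kcnip3 to 0.41 for Mme.

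**Figure D4:**
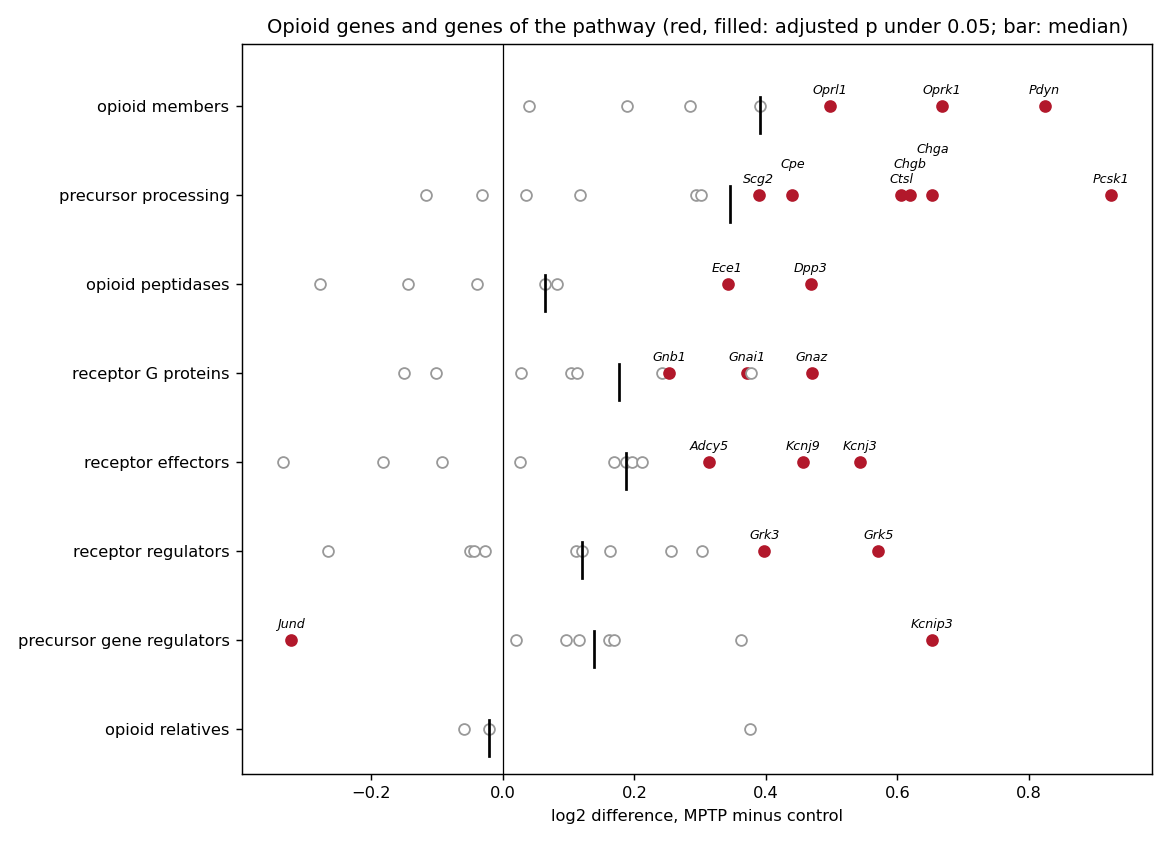
Log2 differences of MPTP minus control (horizontal axis) for the 7 opioid genes and 7 lists of pathway genes (rows), with each point a gene, red and named where the adjusted p in limma was under 0.05, and a bar for the list median. Pcsk1 (0.92) and Pdyn (0.82) lie farthest to the right, and Jund (-0.32) is the only named gene to the left of 0.

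Markers of neurons and glia moved with these genes. In tissue RNA, a change in the share of a cell type and a change in RNA per cell cannot be told apart. Pan-neuronal genes averaged 10.13 and 10.11 after saline and 10.33 to 10.41 on the 6 MPTP-treated arrays, and 8 of 14 measured rose after MPTP (median 0.30). Of 14 genes of inhibitory dorsal horn neurons, a class that includes many Pdyn neurons, 4 rose, namely the GABA-synthesising Gad1 (0.41) and Gad2 (0.48) and the lineage factors Lbx1 (0.46) and Lhx5 (0.56). Pax2 was at -0.037 and the inhibitory vesicle transporter gene Slc32a1 at -0.0013. Of 15 excitatory dorsal horn genes 6 rose, led by the glutamate transporter gene Slc17a6 (0.75) and Npy1r (0.89). Of astrocyte markers, 10 of 10 rose (median 0.49), while 12 of 15 muscle markers fell (median -2.44). Of motor neuron genes 6 of 10 rose, of microglial genes 6 of 9 and of oligodendrocyte genes 2 of 7. None of the Schwann cell, meningeal, forebrain or position genes passed. Sensory ganglion markers, which could bring mu receptor RNA, had a mean of 5.74 on control replicate 1 and 4.90 to 5.17 on the other arrays, and 0 of 6 measured passed (median -0.48).

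Set against the mean of the pan-neuronal genes of the same array, Pdyn lay 3.93 and 4.18 below it after saline and 3.47 to 3.63 below it after MPTP, still without overlap. Oprl1 did not overlap either, at 1.93 and 2.06 below it after saline and 1.74 to 1.92 below it after MPTP. Penk was lower after MPTP without overlap, at 1.22 and 0.978 above that mean after saline and 0.808 to 0.977 above it after MPTP. For Oprl1 and Penk the nearest arrays were almost level, at 1.934 against 1.924 below it and 0.978 against 0.977 above it. Pnoc, Oprk1, Oprm1 and Oprd1 overlapped on this scale. The share of all genes without overlap on this scale was not counted, so these cases have no background to be set against. With every array centred on the pan-neuronal mean, 22.5% of all genes were called. Pdyn then rose by 0.56, while Oprk1 at 0.41 (limma adjusted p = 0.109) and Oprl1 at 0.24 (0.0586) no longer passed. Oprm1 was then at 0.023 and Oprd1 at -0.074. That centring lowered the median gene from 0.061 to -0.20, and the distance of a gene from the median gene cannot change with it. Between control replicate 1 and acupoint replicate 1, the pair with the highest nerve and meningeal markers, Pdyn differed by 0.67, Oprm1 by 0.42, Oprl1 by 0.38, Pnoc by 0.34, Oprd1 by 0.31, Oprk1 by 0.11 and Penk by -0.028. This pair, chosen after its values were seen, was still apart in muscle markers (7.21 against 6.70) and sensory ganglion markers (5.74 against 5.17). The part of muscle or other tissue in the differences of the 7 genes was not tested.

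**Figure D5:**
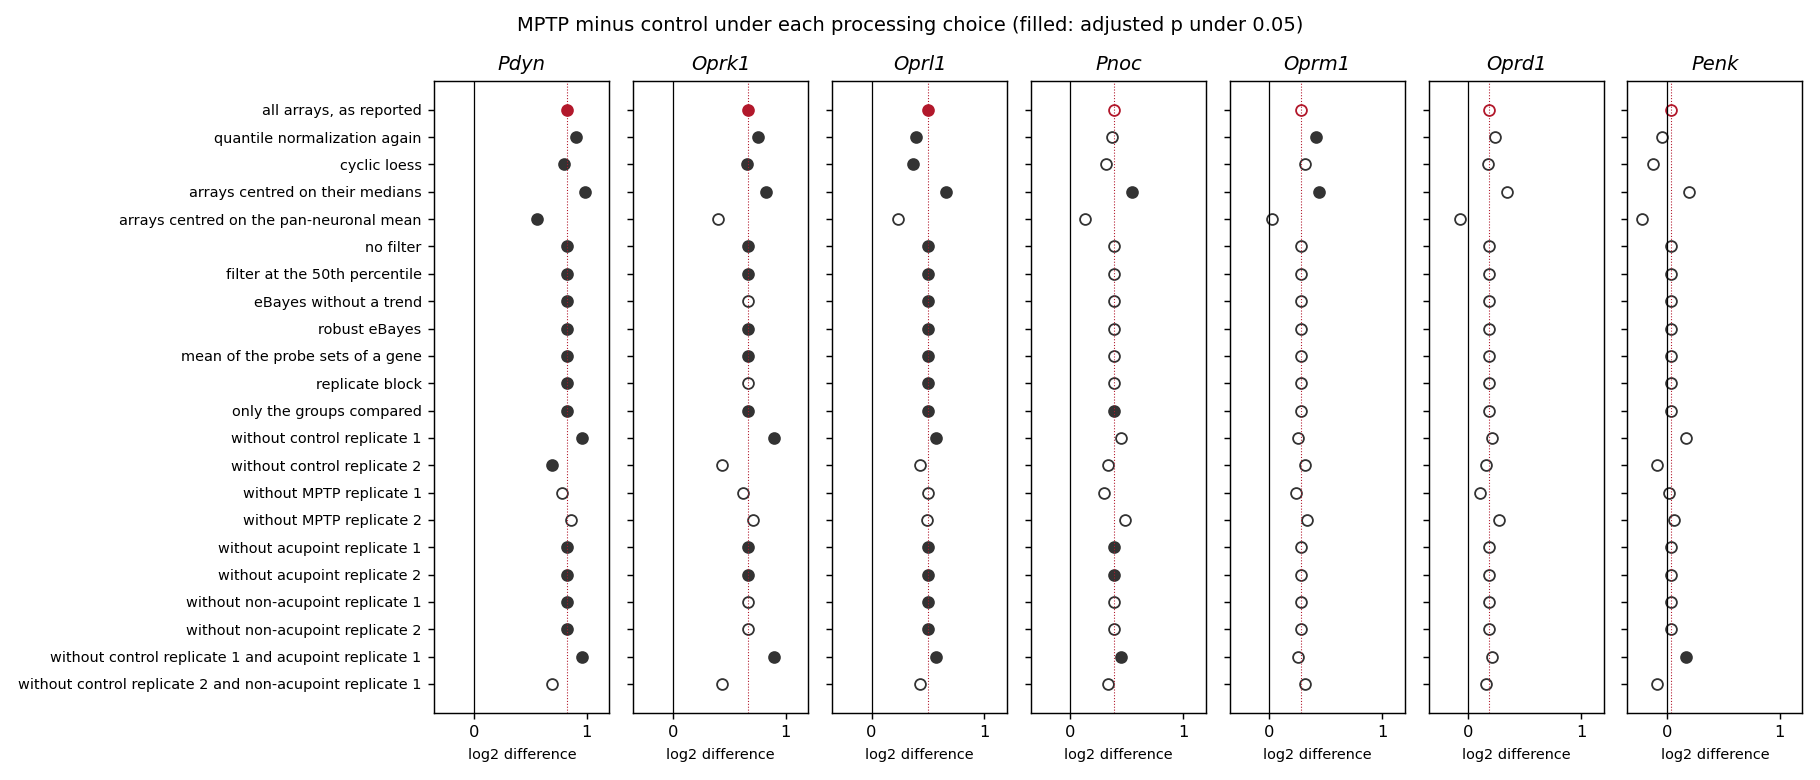
Log2 differences of MPTP minus control (horizontal axis) for each gene (panels) with all arrays (top line, red) and under each alternative (lines below), filled where the adjusted p in limma was under 0.05. Pdyn stays between 0.56 and 0.98, Oprk1 between 0.41 and 0.90, and Penk lies on both sides of 0.

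The genes whose signal followed each member most closely over the 8 arrays were found by Pearson correlation, given as a description, since the offset between control and MPTP-treated arrays is part of it. For Pdyn they were Map6 (r = 0.997), Spock2 (0.994) and the cyclase gene Adcy5 named above (0.993), and 1268 genes reached 0.9 or more. Within the 6 MPTP-treated arrays the correlation of Pdyn with these 3 was 0.933, 0.546 and 0.771. For Oprk1 they were Fen1 (0.996), Rnf146 (0.992) and Nucb2 (0.991), and for Oprl1 they were Btg1, Pggt1b and Pla2g15 (0.991 to 0.992). For Pnoc they were Spns1 (0.993), U2af2 (0.991) and Nat14 (0.985), for Oprm1 Spen (0.984), Tnks (0.982) and Mtmr4 (0.967), and for Oprd1 Sytl4, Tgfb2 and Akap9 (0.962 to 0.970). Penk had the fewest such genes, with 17 at 0.9 or more, led by Rest (0.968), Ephb6 (0.960) and Tmem37 (0.956).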

How the data were processed

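The table the authors deposited holds log2 signals of 35557 probe sets, made with Affymetrix Expression Console and RMA per the submitters' processing notes, with no versions given in the sources used here. The log base was inferred from the data range. RMA signals understate fold changes of dim probe sets. The control arrays had a higher median for probe sets without a symbol (4.75 on both) than the others (4.25 to 4.39). By the platform annotation, 21789 probe sets had 1 gene symbol, 1621 had several and 12147 had none. Probe sets with 1 symbol and a mean above the 30th percentile (4.30) were kept, the highest per gene (16026 genes). Group means were estimated from all 8 arrays together in limma 3.58.1 (R 4.3.3) with eBayes and an intensity trend (4 residual and 5.34 prior degrees of freedom). P-values are two-sided with Benjamini-Hochberg adjustment per contrast over all genes, called under 0.05. Alternatives were other normalizations, filters and variance settings, a replicate block, the groups compared alone and single arrays left out. Precision is limited by the small number of arrays, and 2 against 2 allow no exact permutation p below 0.333. All 7 members, up to 6 called genes of each pathway list (otherwise those with the smallest p) and the 3 best-correlated genes per member were to be named. Other genes named were chosen after their values were seen. Members and lists were chosen with earlier results of these data known. The replicate numbers were not treated as pairs in the main fit. Deviations of same-numbered arrays correlated at -0.33 to 0.17 between groups. With 2 arrays per group this cannot exclude a pairing or a shared batch. Plots used Python 3.11.15 and matplotlib 3.10.9.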

Additional observations from a re-analysis of the deposited data

Results flagged for a closer look

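Penk stood out in the comparison of the needling sites, because both acupoint arrays (11.32 and 11.34) were above both MPTP arrays (11.28 and 11.24) and both non-acupoint arrays (11.18 and 11.16) were below them. The acupoint minus non-acupoint difference was 0.17 (SE 0.085, 95% interval -0.027 to 0.36) and did not pass (limma adjusted p = 0.936). The 2 control arrays, at 11.35 and 11.09, were farther apart than that difference. Penk lay above 87.2% of the genes tested. Oprd1 (0.15), Oprm1 (0.14) and Oprl1 (0.12) also had no overlap in that direction. So the direction was not particular to Penk. It was shared by 14 of 14 inhibitory and 14 of 15 excitatory dorsal horn genes measured (medians 0.15 and 0.16, against -0.00083 over all genes). Nor was it particular to dorsal horn genes. It was also that of 15 of 15 muscle genes (median 0.59) and 5 of 5 Schwann cell genes (0.58). Of meningeal genes 7 of 8 shared it (0.33), and of lumbosacral genes 6 of 6 (0.96). Pan-neuronal genes were split, with 7 of 14 (0.0010). Only 2 of 10 motor neuron, 1 of 7 oligodendrocyte and 1 of 9 microglial genes shared it.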

How the results depend on the processing

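The counts of called genes among the 7 in MPTP minus control (3), acupoint minus control (3), non-acupoint minus control (3) and all MPTP-treated arrays minus control (4) depended on the scaling and on single arrays. With arrays centred on their medians the first 2 counts were 5 and 5, and on the pan-neuronal mean 1 and 1. The share of all genes called moved too, from 16.8% and 11.7% to 26.5% and 17.9% with the first centring and 22.5% and 18.8% with the second. The acupoint count was 0 with only the groups compared, where 0.842% of all genes were called. The non-acupoint count was 1 after cyclic loess, where 15.7% of all genes were called. With 1 array left out, the counts ran from 0 to 4 in MPTP minus control, acupoint minus control and non-acupoint minus control, and from 2 to 5 over all MPTP-treated arrays. In MPTP minus control the share of all genes called then ran from 0.431% without MPTP replicate 1 to 26.4% without acupoint replicate 1. A group of 1 array is then assumed to vary like the others. Leaving out 2 arrays, chosen after seeing the data, left Pdyn in MPTP minus control at 0.96 without control replicate 1 and acupoint replicate 1. Without control replicate 2 and non-acupoint replicate 1 it was at 0.69. The counts rose in all 4 of these comparisons in the first case and fell in all 4 in the second. The share of all genes called moved the same way. Penk over all MPTP-treated arrays (0.034) turned to -0.22 with centring on the pan-neuronal mean, where 37.1% of all genes were called. In that comparison 1 of 21 alternatives gave Penk a call with the sign reversed. With the replicate number as a block the counts were 2, 2, 2 and 4, where 13.8%, 8.72%, 15.7% and 22.2% of all genes were called. Oprk1 (limma adjusted p = 0.0541 in MPTP minus control and 0.0611 in non-acupoint minus control) and Pnoc (0.0563 in acupoint minus control) lost their calls in that fit. None of the 7 genes was called in the 3 comparisons among MPTP groups under any alternative run. Among all genes some alternatives gave calls. In non-acupoint minus MPTP with only the groups compared they were 0.0125% of genes, and some fits with arrays left out gave more. Besides the scaling and the arrays left out, the cause of these changes was not tested.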
